A study of Homo sapiens with 9 samples.

Results

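NRF2 and glutathione defence genes were examined in PC3 xenografts treated with an antibody-drug conjugate or vehicle. The 9 genes, taken by symbol, were NFE2L2, KEAP1, NQO1, HMOX1, GCLC, GCLM, TXNRD1, SRXN1 and SLC7A11, and all 9 were found among the 16008 genes listed in both count tables. PC3 is a human prostate cancer cell line, grown here under the skin of male NSG mice, which lack mature lymphocytes but keep macrophages, fibroblasts, vessels and muscle of their own. Per the series record, the mice were 11 weeks old and received PBS (vehicle), T-DXd or P-DXd weekly for 5 cycles once tumors measured 90 mm3, with conjugates at 5 mg/kg, and tumors were taken at the endpoint. For the experiment that compared these conjugates, the study's methods give the same dose but another age, starting volume and number of cycles. The antibody of P-DXd, patritumab, binds HER3, that of T-DXd, trastuzumab, binds HER2, and each delivers deruxtecan, a topoisomerase I inhibitor. RNA-Seq libraries numbered 3 per group, each titled as a separate xenograft. For the 6 treated libraries the title and the treatment field of each record name different conjugates, so groups are named by title (P-DXd-titled, T-DXd-titled), and which conjugate each received cannot be told from these labels. The comparison of all 6 treated libraries with the 3 PBS libraries does not depend on the answer.

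NRF2, encoded by NFE2L2, is a transcription factor that is held at low levels by KEAP1, a sensor protein that directs it to degradation. When electrophiles or oxidants modify KEAP1, NRF2 accumulates, pairs with small MAF proteins and activates genes through the antioxidant response element. Its classical targets make and spend glutathione, reduce quinones, break down heme and recycle thioredoxin. Because NRF2 is controlled mainly as a protein, the mRNA level of NFE2L2 is not a measure of its activity, and target mRNAs are the usual readout. Transcript levels were measured here, not protein, glutathione or oxidative damage.

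Promoter sequences from RefSeq (GRCh38.p14, from 250 bases before to 50 bases after each start site) were searched for the core of that element, TGACNNNGC, on both strands. The motif was present in 13.3% of 35116 promoters and, taking genes with more than 1 start site once, in 16.1% of 27305 genes. It was found in 3 of the 7 members with an entry in the table, namely GCLM, KEAP1 and TXNRD1, and not in these windows of NFE2L2, GCLC, NQO1 or SRXN1. HMOX1 and SLC7A11 had no entry. The 150-base windows with matches are shown, and capitals mark each match on either strand. The other KEAP1 start site had no match. These 3 genes had higher mRNA levels in treated xenografts (log2 fold changes of 0.37 to 0.46), and so did NFE2L2 (0.42), which had no match. The lines give GCLM (chr1:93909406-93909555, minus strand, match 34 bases before the start site), KEAP1 (chr19:10502747-10502896, minus strand, matches 54 and 31 bases before), and both TXNRD1 start sites (chr12:104215654-104215803, plus strand, matches 99 and 8 bases before; chr12:104286907-104287056, plus strand, match 102 bases before).
GCLM: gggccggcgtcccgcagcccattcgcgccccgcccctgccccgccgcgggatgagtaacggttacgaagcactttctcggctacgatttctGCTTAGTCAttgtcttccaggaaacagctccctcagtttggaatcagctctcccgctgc
KEAP1: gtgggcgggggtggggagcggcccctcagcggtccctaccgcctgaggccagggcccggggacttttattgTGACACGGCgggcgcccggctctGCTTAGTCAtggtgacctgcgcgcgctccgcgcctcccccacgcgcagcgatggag
TXNRD1, upstream start: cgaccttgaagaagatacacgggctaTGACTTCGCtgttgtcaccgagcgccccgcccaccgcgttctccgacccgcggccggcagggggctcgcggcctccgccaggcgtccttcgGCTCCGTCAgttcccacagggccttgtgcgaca
TXNRD1, downstream start: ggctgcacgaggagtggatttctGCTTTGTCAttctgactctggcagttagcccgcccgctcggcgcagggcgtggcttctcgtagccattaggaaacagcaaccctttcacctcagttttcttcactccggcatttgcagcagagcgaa
A match is a description of these letters and does not show that NRF2 binds there.

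Total counts were 54481702 to 125538606 per library, and member counts ran from 763 (HMOX1) to 27003 (TXNRD1), so no member was near the limit of detection. PBS replicate 1 stood apart from the other PBS libraries. The median gene differed by 0.353 and 0.4 log2 units between it and PBS replicates 2 and 3, against 0.12 between those 2 and 0.107 to 0.176 within the treated groups. It was above both other PBS libraries for 45.7% of all genes and for 5 of the 9 members, and below both for the other 4 members. P-DXd-titled replicate 2 held a summed level of 9 skeletal muscle genes of 3537 CPM (counts of a gene relative to the scaled total of its library, times 1e6), against 98.5 to 251.2 in the other treated libraries and 10.4 to 54.4 in PBS. PC3 cells were followed by KRT8, KRT18, KRT19, EPCAM, VIM and CD44, of which VIM and CD44 are not particular to epithelium. These 6 genes summed to 2425, 3055 and 3312 CPM in PBS replicates 1 to 3 and 3856 to 4442 in treated libraries. PBS replicate 1 was below both other PBS libraries for all 6. KRT8, KRT18, KRT19 and EPCAM were higher in treated libraries by 0.56 to 1.31 log2 units, and VIM and CD44 were at 0.03 and -0.21. KLK3, which PC3 cells lack, was in neither table. The methods do not say that mouse reads aligning to human genes were removed, and in bulk tissue fewer cells of a type cannot be told apart from less RNA per cell.

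**Figure D1:**
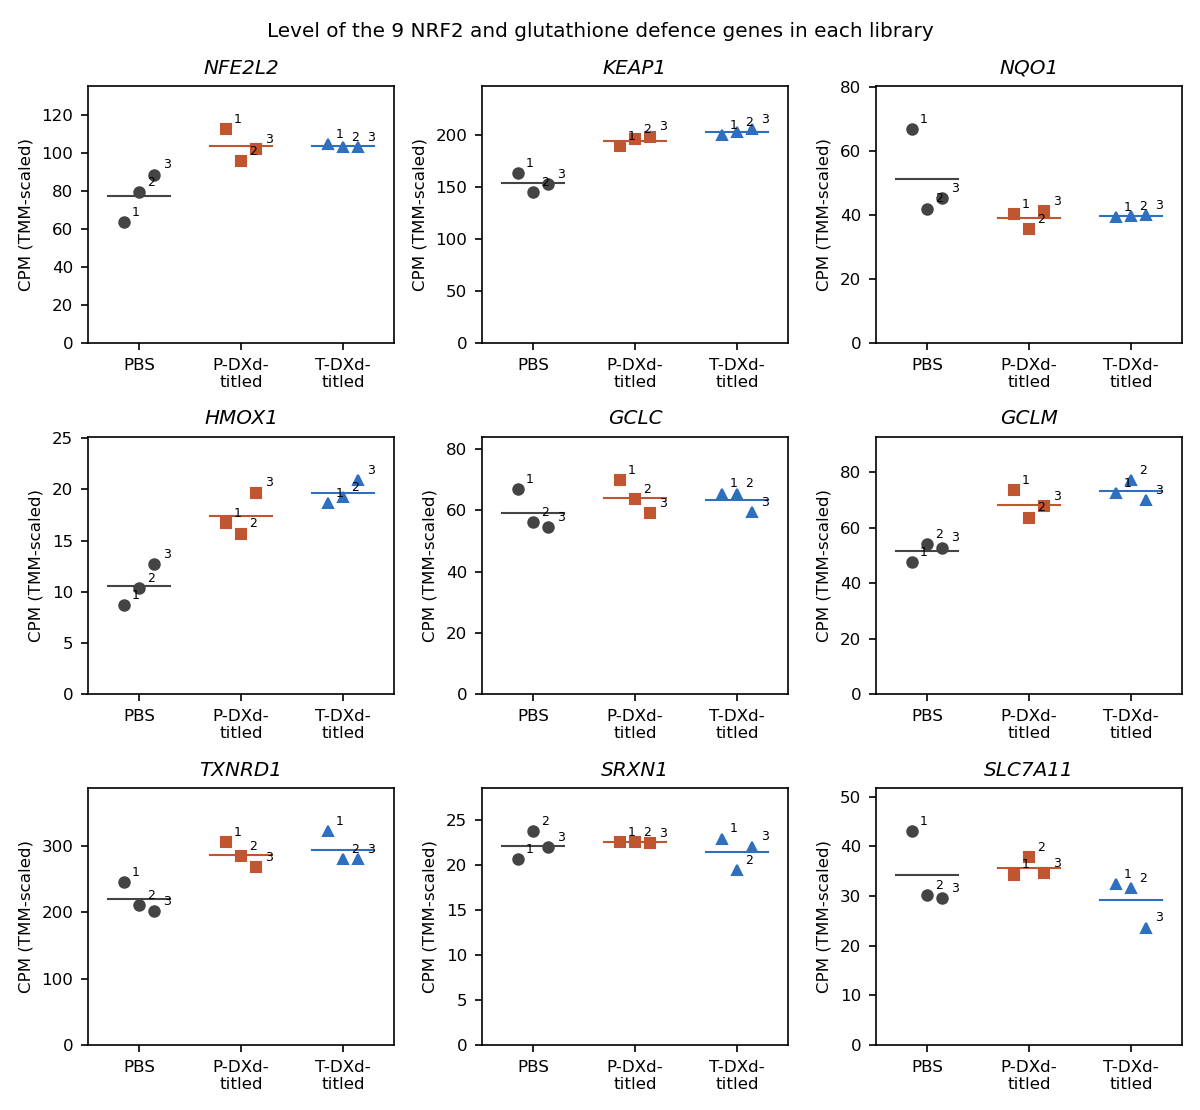
Level of each member (CPM on a linear axis from 0, scaled by TMM) in the 9 libraries, as points numbered by replicate with a line at each group mean. PBS replicate 1 is the highest PBS library for NQO1, SLC7A11, GCLC, TXNRD1 and KEAP1 and the lowest for the other 4, and all 6 treated libraries lie above all 3 PBS libraries for NFE2L2, KEAP1, HMOX1, GCLM and TXNRD1.

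The first question was how the members differed between treated and vehicle xenografts. HMOX1, encoding the inducible heme oxygenase, rose in treated xenografts, and it was the only one of the 9 members to pass both thresholds (an adjusted p of 0.05 or less together with a 1.5-fold difference or more). GCLM, KEAP1, NFE2L2 and TXNRD1 were higher by 1.29- to 1.38-fold, which passed the adjusted p but not the fold minimum. NQO1, the quinone reductase most often used as an NRF2 readout, was lower by 1.31-fold, also under the fold minimum. GCLC, SRXN1 and SLC7A11 did not pass either threshold. The count of 1 in 9 stood beside 32.2% of all 15070 genes tested in the same comparison (15.2% of all genes called higher and 17.1% lower). On the adjusted p alone, 6 of 9 members passed (5 higher, 1 lower), beside 55.7% of all genes. Their CPM ranges did not overlap between treated and PBS for the same 6 of 9, beside 50.5% of all genes. By the call rule, members were not called more often than genes in general. The median absolute log2 fold change was 0.385 over the members and 0.424 over all genes, and 26.5% of genes had a larger absolute change than HMOX1. The direction was less even, with a median log2 fold change of 0.37 over the members against -0.01 over all genes.

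The sensors and regulators are taken first. NFE2L2 (ENSG00000116044.11, chromosome 2, 178092323 to 178257425 as the tables list it, on a build they do not name) had levels of 63.7, 79.3 and 88.7 CPM in PBS, 112.8, 95.9 and 102.0 in the P-DXd-titled group and 104.7, 103.2 and 103.3 CPM in the T-DXd-titled group. All treated libraries were above all PBS libraries, and the PBS libraries were the more scattered. The log2 fold change was 0.42 ± 0.10 (SE; edgeR's quasi-likelihood test with Benjamini-Hochberg adjustment, adjusted p = 0.00413). The listed span of NFE2L2 overlaps that of AGPS, and strand use in counting was not stated, so shared reads cannot be assigned with certainty. KEAP1 (ENSG00000079999.9, chromosome 19, 10596796 to 10614417) was at 163.8, 145.2 and 152.9 CPM in PBS, 190.0, 196.2 and 198.8 in the P-DXd-titled group and 200.0, 203.0 and 206.4 CPM in the T-DXd-titled group. Its treated libraries too were all above PBS, with a log2 fold change of 0.37 ± 0.06 (edgeR, adjusted p = 0.00054). Thus the transcripts of the factor and of its inhibitor were both higher, and their log2 count ratio differed by 0.06 (exact permutation test, p = 0.69). That ratio changed sign, to -0.11, without PBS replicate 1.

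Glutathione synthesis depends on glutamate-cysteine ligase, made of a catalytic subunit (GCLC) and a modifier subunit (GCLM) that raises its activity, and on cystine taken up by the exchanger of SLC7A11 and its heavy chain SLC3A2. GCLM (ENSG00000023909.5, chromosome 1, 94350761 to 94374966) was at 47.5, 54.0 and 52.8 CPM in PBS, 73.5, 63.6 and 67.8 in the P-DXd-titled group and 72.5, 77.2 and 69.9 CPM in the T-DXd-titled group. Every treated library was above every PBS library. The log2 fold change was 0.46 ± 0.08 (edgeR, adjusted p = 0.000585). GCLC (ENSG00000001084.6, chromosome 6, 53362139 to 53481768) was at 66.8, 56.2 and 54.5 CPM in PBS, 70.0, 63.6 and 59.0 in the P-DXd-titled group and 65.5, 65.5 and 59.4 CPM in the T-DXd-titled group. The ranges overlapped through PBS replicate 1, and the log2 fold change was 0.11 ± 0.08 (edgeR, adjusted p = 0.288). Without PBS replicate 1 it was 0.21, with an adjusted p of 0.0234 and still under the fold minimum.

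The subunits were therefore compared within each library. The log2 ratio of GCLM to GCLC counts was -0.49, -0.06 and -0.05 in PBS, 0.07, 0.00 and 0.20 in the P-DXd-titled group and 0.15, 0.24 and 0.24 in the T-DXd-titled group. No treated library overlapped a PBS library, and the mean was higher by 0.35 log2 units, or 1.27-fold (exact two-sided permutation test over 84 divisions of the 9 libraries, p = 0.0119, the smallest possible, and 0.0298 adjusted over the 5 ratios tested). PBS replicate 1 carried part of this difference, which was 0.20 without it (adjusted exact p = 0.0893). How often ratios of other gene pairs separate treated from PBS libraries was not computed. Among single genes, 50.5% had CPM ranges that did not overlap.

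SLC7A11 (ENSG00000151012.9, chromosome 4, 139085251 to 139163503) showed no shared direction. Its levels were 43.1, 30.2 and 29.5 CPM in PBS, 34.3, 37.9 and 34.6 in the P-DXd-titled group and 32.4, 31.7 and 23.6 CPM in the T-DXd-titled group. PBS replicate 1 was the highest of all 9 libraries and T-DXd-titled replicate 3 the lowest. The log2 fold change was -0.08 ± 0.16 (95% interval -0.42 to 0.26; edgeR, adjusted p = 0.68), and it was 0.13 without PBS replicate 1. Its partner SLC3A2 was at 417.0, 307.1 and 290.9 CPM in PBS and at 430.3 to 499.0 CPM in the treated libraries (log2 fold change 0.45 ± 0.11, edgeR, adjusted p = 0.00537), higher but under the fold minimum. The log2 ratio of SLC7A11 to SLC3A2 was close to constant in PBS, at -3.27, -3.35 and -3.30. It was lower in every treated library, at -3.68, -3.51 and -3.85 in the P-DXd-titled group and -3.84, -3.88 and -4.35 in the T-DXd-titled group. The mean differed by -0.54 log2 units, a ratio 1.46-fold lower (exact permutation test, p = 0.0119, adjusted 0.0298). Leaving out PBS replicate 1 gave -0.53, so the size of this difference did not rest on that library, but with 6 against 2 libraries the adjusted exact p was 0.119.

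**Figure D2:**
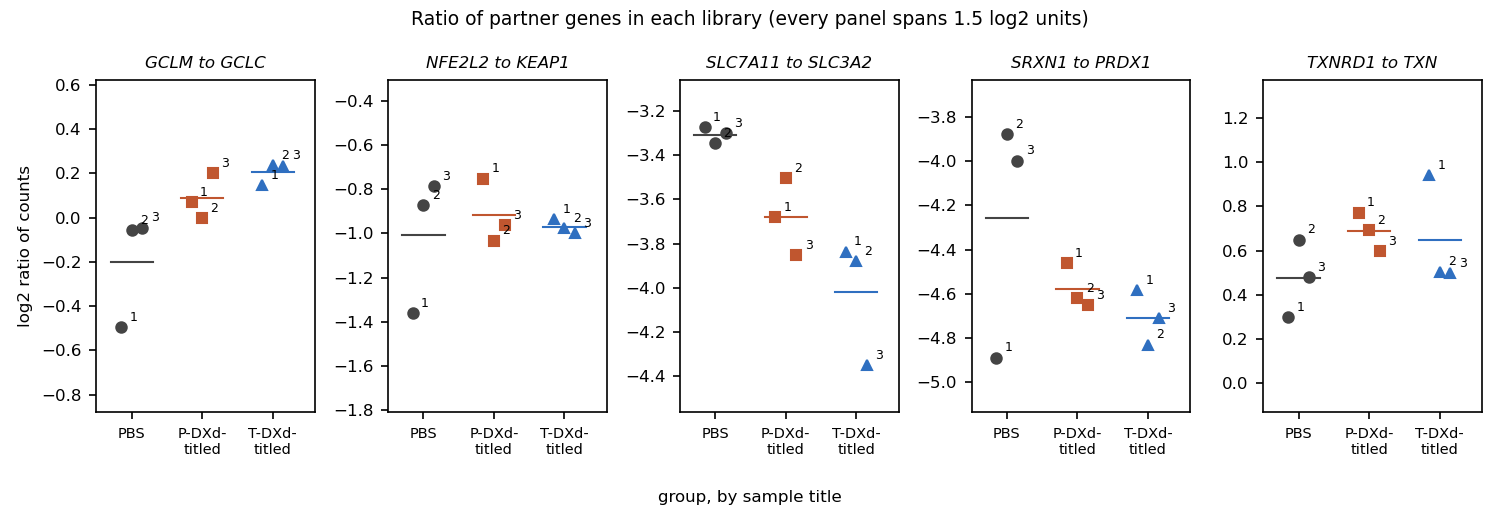
Log2 ratio of counts of 5 pairs of partner genes in each library (points numbered by replicate, lines at group means, each panel spanning 1.5 log2 units). Treated and PBS libraries do not overlap for GCLM to GCLC (higher in treated) and SLC7A11 to SLC3A2 (lower in treated), and overlap for the other 3 pairs. For SRXN1 to PRDX1 they overlap through PBS replicate 1 alone. The share of other gene pairs without overlap was not computed.

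HMOX1 (ENSG00000100292.12, chromosome 22, 35776354 to 35790207) degrades heme to biliverdin, carbon monoxide and iron, and is induced by NRF2 once the repressor BACH1 is displaced. Its levels were 8.67, 10.4 and 12.7 CPM in PBS, 16.7, 15.7 and 19.7 in the P-DXd-titled group and 18.7, 19.3 and 20.9 CPM in the T-DXd-titled group. The lowest treated library was above the highest PBS library. The fold change was 1.75 (log2 0.81 ± 0.14, 95% interval 0.50 to 1.11; edgeR, adjusted p = 0.00063), and without PBS replicate 1, the lowest library, the log2 fold change was 0.69 (adjusted p = 0.000497). HMOX1 was the least abundant member by raw level, and its interval reaches below a fold change of 1.5, so a test against that fold (glmTreat) gave an adjusted p of 0.0912.

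HMOX1 is also abundant in macrophages, which the host keeps. Of 15 macrophage markers 9 were in both tables, and their summed level was 7.35 to 8.05 CPM in PBS and 20.6 to 41.8 CPM in treated libraries, with 6 of 8 tested called higher. LYZ was at 0.663 to 1.83 CPM in PBS and 6.22 to 15.3 CPM in treated libraries, CSF1R at 2.51 to 2.87 and 6.44 to 14.5 CPM. CD68 was at 0 to 0.122 CPM in all libraries, and CD163, ADGRE1, C1QA, C1QC, TYROBP and MRC1 were in neither table. HBB, for red blood cells, stayed at or below 1.04 CPM and was not called. Of 11 fibroblast markers tested 6 were called higher (POSTN, at 1.58 ± 0.36, and COL3A1 most) and 1 lower. The summed level of the 12 fibroblast markers in both tables was 2097, 1163 and 1089 CPM in PBS replicates 1 to 3. PBS replicate 1 was above both other PBS libraries for 11 of these 12. Treated libraries were at 2038 to 2266 CPM, apart from P-DXd-titled replicate 1 at 1250 CPM. Of 6 endothelial markers TEK alone was called. All these marker levels come from counts against human genes, and their part in the rise of HMOX1 was not tested.

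NQO1 (ENSG00000181019.8, chromosome 16, 69740899 to 69760854) reduces quinones by transfer of a pair of electrons. Its levels were 67.0, 42.0 and 45.3 CPM in PBS, 40.2, 35.5 and 41.3 in the P-DXd-titled group and 39.3, 39.7 and 40.0 CPM in the T-DXd-titled group. All treated libraries were below all PBS libraries, but PBS replicate 1 was far above the rest. The log2 fold change was -0.39 ± 0.13 (edgeR, adjusted p = 0.0246). Leaving out that library gave -0.14, and the adjusted p was 0.0944, so most of the size of the difference rested on 1 library. The genes whose log2 CPM was most like that of NQO1 over the 9 libraries were ADAM23, KRT14 and KIF13A (Pearson r = 0.985, 0.984 and 0.983), a description over libraries that differ in depth and were scaled together. For HMOX1 they were HDAC11, PDXK and CSTB (r = 0.993, 0.99 and 0.989), and for SLC7A11 they were ST8SIA4, SPATA24 and ZFR (r = 0.916, 0.897 and 0.885). All are picked as the highest of 15070 genes over the same libraries.

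In the thioredoxin branch, TXNRD1 encodes the cytosolic reductase that keeps thioredoxin reduced, and SRXN1 encodes sulfiredoxin, which rescues overoxidized peroxiredoxins. TXNRD1 (ENSG00000198431.11, chromosome 12, 104609557 to 104744061) was at 245.8, 210.7 and 202.1 CPM in PBS, 306.6, 285.5 and 268.9 in the P-DXd-titled group and 323.1, 280.7 and 280.5 CPM in the T-DXd-titled group. All treated libraries were above PBS, with a log2 fold change of 0.41 ± 0.08 (edgeR, adjusted p = 0.00225) that was 0.50 without PBS replicate 1. Its listed span overlaps that of EID3. SRXN1 (ENSG00000271303.1, chromosome 20, 627259 to 634014) was at 20.6, 23.8 and 22.0 CPM in PBS, 22.5, 22.5 and 22.5 in the P-DXd-titled group and 22.9, 19.4 and 22.0 CPM in the T-DXd-titled group. The groups overlapped, and the log2 fold change was -0.01 ± 0.08 with a 95% interval of -0.19 to 0.17 (edgeR, adjusted p = 0.93), which leaves out a fold change of 1.5 in either direction. The ratios of TXNRD1 to TXN (a log2 difference of 0.19, exact p = 0.179) and of SRXN1 to PRDX1 (a difference of -0.39, exact p = 0.119) overlapped between groups.

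**Figure D3:**
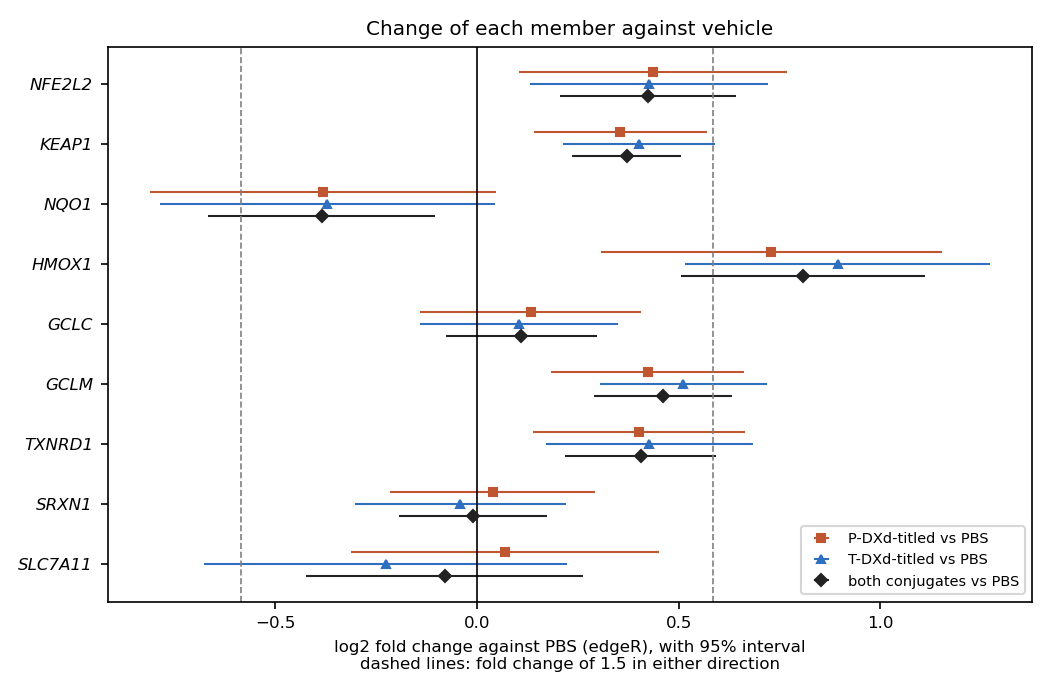
Log2 fold change of each member against PBS with its 95% interval, for P-DXd-titled (3 against 3 libraries), T-DXd-titled (3 against 3) and both conjugates (6 against 3), all sharing the PBS libraries, with dashed lines at a fold change of 1.5. HMOX1 is the only member whose estimates lie beyond a dashed line, and the 3 estimates for NQO1 lie between -0.39 and -0.37.

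Per length, the order of levels differed from that of raw CPM. With CPM divided by the exon length of each gene in GENCODE v44, KEAP1 was the highest member in PBS (43.1 ± 2.62 CPM per kb, SD, n = 3), followed by TXNRD1 (32.7 ± 3.45) and NQO1 (17.3 ± 4.56). GCLM (9.48 ± 0.641), SRXN1 (8.75 ± 0.628) and GCLC (6.86 ± 0.779) came next, of which GCLM and SRXN1 had overlapping mean ± SD. NFE2L2 (5.16 ± 0.842), HMOX1 (4.58 ± 0.877) and SLC7A11 (3.55 ± 0.795) were lowest, with overlapping mean ± SD. In treated libraries GCLM (13.04 ± 0.878, n = 6) and NQO1 (13.2 ± 0.669) were level, and HMOX1 (8.02 ± 0.845) was close to SRXN1 (8.69 ± 0.509) and GCLC (7.41 ± 0.483). Exon lengths are unions over isoforms, so the level of a gene with long unused exons is understated.

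The second question was whether each titled group differed from vehicle. Both comparisons use the same PBS libraries. In P-DXd-titled xenografts 1 of 9 members was called, HMOX1 (log2 fold change 0.73 ± 0.18, edgeR, adjusted p = 0.0211), beside 25.0% of all genes, and 5 of 9 passed the adjusted p alone, beside 34.0%. NFE2L2 was at the edge of that threshold, with a log2 fold change of 0.44 ± 0.14 and an adjusted p of 0.04999. The HMOX1 call was lost without PBS replicate 2 (adjusted p = 0.0679), P-DXd-titled replicate 1 (0.0593) or P-DXd-titled replicate 3 (0.0877), at log2 fold changes of 0.70, 0.75 and 0.64. In T-DXd-titled xenografts 1 of 9 was called, again HMOX1 (0.89 ± 0.16, edgeR, adjusted p = 0.00575), beside 28.6% of all genes, and 5 of 9 passed the adjusted p alone, beside 42.3%. The 5 were HMOX1, GCLM, KEAP1, TXNRD1 and NFE2L2 in each comparison. For GCLM the log2 fold change was 0.42 ± 0.10 in the former comparison and 0.51 ± 0.09 in the latter. NQO1 was at -0.38 ± 0.18 and -0.37 ± 0.18 and did not pass in either (edgeR, adjusted p = 0.141 and 0.127).

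The third question was whether the titled groups differed from each other. No member was called between the titled groups, with edgeR or DESeq2, beside 0.0273% of all genes with edgeR (4 genes), and all adjusted p values of members were 0.9998. At an unadjusted p under 0.05 there was 1 member, SLC7A11, higher in P-DXd-titled by 0.28 ± 0.12 on the log2 scale (95% interval 0.02 to 0.55, unadjusted p = 0.0359). CPM ranges did not overlap between the titled groups for SLC7A11 and KEAP1, 2 of 9 members, beside 8.09% of all genes. The KEAP1 difference was small, with a 95% interval of -0.20 to 0.08 on the log2 scale. HMOX1 differed by -0.17, with an interval of -0.40 to 0.05. For NFE2L2, NQO1, GCLC, GCLM, TXNRD1 and SRXN1 the intervals ran from -0.26 at the lowest to 0.26 at the highest. These intervals leave out a fold change of 1.5 between titled groups for 9 of 9 members.

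The other genes of the pathway, on lists chosen by textbook role, are given for all 6 treated against the 3 PBS libraries, as log2 fold changes with SE where no unit is named. Each count is to be read against all genes tested, of which 32.2% were called (15.2% higher, 17.1% lower), or 13.6% higher and 14.0% lower without PBS replicate 1. Of 14 regulators and partners of NRF2, 4 rose and 1 fell (35.7% called). NFE2L3, a relative of NRF2, rose by 1.25 ± 0.24 on the log2 scale (edgeR, adjusted p = 0.00134), from 90.8, 215.5 and 233.6 CPM in PBS to 406.4 to 455.5 CPM. SQSTM1 (p62), which binds KEAP1 and is itself an NRF2 target, rose by 1.12 ± 0.10 (adjusted p = 1.33e-05), from 277.0 to 365.7 CPM in PBS to 654.1 to 763.3 CPM in treated libraries. NFE2L1 and MAFF also rose (0.97 and 0.58), and PALB2, a DNA repair protein that binds KEAP1, fell (-0.66). The calls of MAFF and PALB2 were lost without PBS replicate 1 (0.52 and -0.49). The repressor BACH1 was at 0.06 ± 0.09. Without PBS replicate 1 the list held 3 higher and 0 lower.

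Of 27 other NRF2 targets tested, 10 rose and 1 fell (40.7% called), and the median log2 fold change was 0.43 against -0.01 over all genes. ABHD4, a lipid hydrolase, rose by 1.56 ± 0.10 (edgeR, adjusted p = 3.7e-06), from 36.1 to 49.6 CPM in PBS to 116.3 to 136.6 CPM in treated libraries. AKR1B10, an aldo-keto reductase, rose from 1.41 to 3.92 CPM to 5.62 to 8.53 CPM, FTL, the ferritin light chain, from 250.6 to 330.6 CPM to 405.2 to 457.0 CPM. UGT1A6 had the largest fitted rise (2.19 ± 0.48, adjusted p = 0.00297) but stayed under 1 CPM in every library, and its reads can be shared with other UGT1A transcripts. ABCC2, an export pump for glutathione conjugates, fell by 1.54 on the log2 scale, from 1.75 to 3.45 CPM to 0.7 to 1.03 CPM. AKR1C1 and AKR1C2, which share much sequence, were at -0.02 and -0.54 and were not called. PBS replicate 1 was above both other PBS libraries for 18 of these 27 genes. Without it 12 rose and 1 fell.

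**Figure D4:**
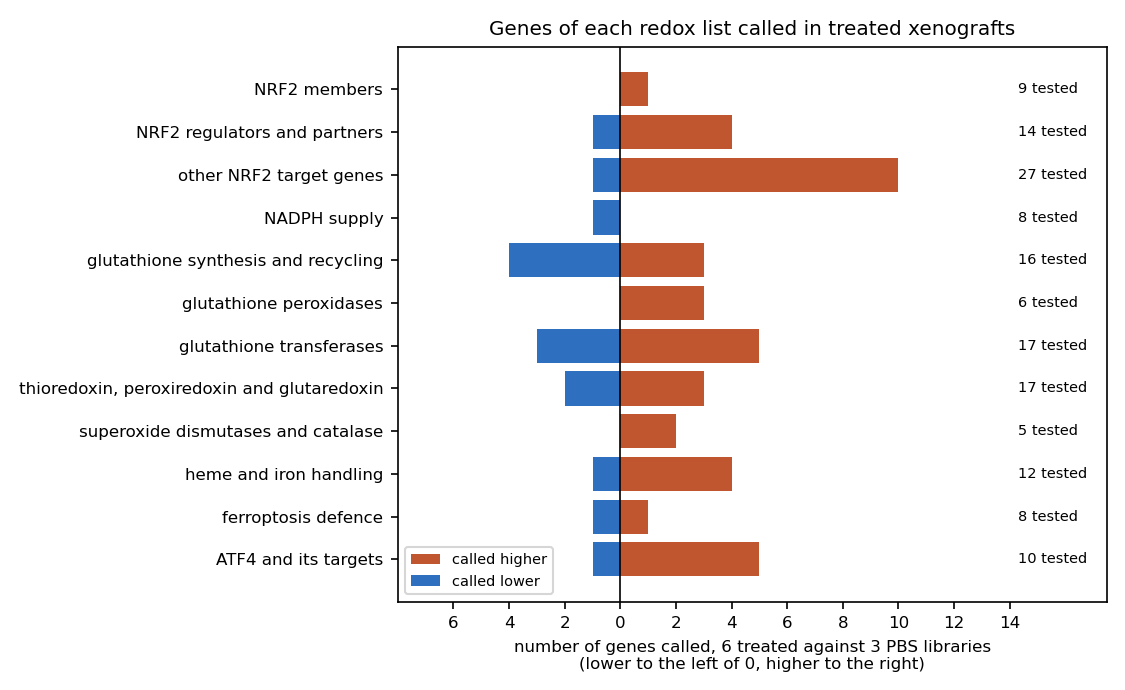
Number of genes called higher (right of 0) or lower (left) in the 6 treated against the 3 PBS libraries for each redox list, with the number tested at the right. The list of other NRF2 targets holds 10 higher and 1 lower, and the 9 members hold 1 higher and 0 lower.

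Genes that make, recycle and break down glutathione moved in both directions, 3 higher and 4 lower of 16 tested (43.8% called), with a median log2 fold change of 0.11. GSS and GSR, the synthase and the reductase, were at 0.15 each and were not called. ANPEP, an ectopeptidase that splits the dipeptide released from glutathione, fell by 3.91 ± 0.30 (edgeR, adjusted p = 5.69e-06), from 296.4, 149.9 and 171.1 CPM in PBS to 9.24 to 19.9 CPM in treated libraries. It was also the 1 listed gene called between the titled groups, 0.94 ± 0.12 higher in P-DXd-titled (adjusted p = 0.0426). The glutathione-degrading pair CHAC1 and CHAC2 moved apart, CHAC1 rising by 1.03 ± 0.14 and CHAC2 falling by 1.70 ± 0.25 on the log2 scale. GGT5 was called higher at levels under 0.3 CPM with overlapping ranges, and was not called without PBS replicate 1 (adjusted p = 0.0744). OPLAH, which supplies glutamate, fell (-0.72).

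Among enzymes that use glutathione, 3 of 6 peroxidases (50.0%) rose and none fell. GPX1, the main cytosolic peroxidase, rose by 0.85 ± 0.07 (edgeR, adjusted p = 7.64e-06), from 183.3 to 204.2 CPM in PBS to 325.9 to 378.7 CPM in treated libraries. GPX3, a secreted form, rose by 1.60 ± 0.25 from 1.54 to 2.43 CPM in PBS to 3.78 to 8.02 CPM. GPX4, which removes lipid hydroperoxides, rose by 0.69 ± 0.11, but without PBS replicate 1 it was at 0.56, under the fold minimum, and GPX7 was called in its place (1.26, adjusted p = 0.0336). Of 17 transferases 5 rose and 3 fell (47.1% called). GSTK1 rose by 1.44 ± 0.18 (adjusted p = 0.000102), from 39.8, 72.1 and 75.8 CPM to 144.1 to 182.9 CPM, whereas GSTM2 fell by 0.95 and GSTM5 rose by 1.55 at no more than 1.98 CPM. GSTM genes are near copies, so their reads may be split uncertainly.

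Of 17 thioredoxin, peroxiredoxin and glutaredoxin genes, 3 rose and 2 fell (29.4% called). TXNIP, the inhibitor of thioredoxin, rose by 1.97 ± 0.23 (edgeR, adjusted p = 5.76e-05), from 84.8, 150.7 and 201.4 CPM to 491.5 to 644.9 CPM, while TXN itself was at 0.20 ± 0.12. SESN2, a stress-induced sestrin, rose by 1.03, and PRDX3 and GLRX3 fell (-0.66 each). Without the PBS library that stood apart PRDX3 and GLRX3 were no longer called (-0.41 each), and the list held 4 higher and 0 lower. Of 5 superoxide dismutase and catalase genes 2 (40.0%) rose, SOD2 (1.24 ± 0.16, 138.3 to 254.2 CPM in PBS and 418.6 to 514.9 CPM in treated) and SOD3 (1.33 ± 0.26). Of 8 genes for NADPH supply, TKT alone (12.5%) was called, and it fell (-0.65 ± 0.11, and -0.46 and not called without PBS replicate 1). PGD, at 0.58 ± 0.08, was just under the fold minimum, and without that library it was called (0.63), the list then holding 2 higher and 0 lower.

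The genes that act with HMOX1 in heme and iron handling included 4 that rose and 1 that fell of 12 (41.7% called). BLVRB and BLVRA, the reductases that act on biliverdin, rose by 1.18 ± 0.08 and 0.76 ± 0.13 (edgeR, adjusted p = 4.26e-06 and 0.000521). BLVRB was at 50.6 to 56.0 CPM in PBS and 108.2 to 130.8 CPM in treated libraries. SLC40A1, the iron exporter ferroportin, rose by 2.06 ± 0.25 from 1.09 to 1.85 CPM to 4.02 to 7.45 CPM, and is also made by macrophages, whose marker levels are given above. TFRC, the transferrin receptor, fell by 1.01 ± 0.09 on the log2 scale, from 543.1 to 632.5 CPM to 268.2 to 345.9 CPM. HMOX2, the constitutive heme oxygenase, was at -0.36 ± 0.11 (adjusted p = 0.0201), under the fold minimum. In the list for ferroptosis defence (8 genes, 25.0% called), GPX4 rose and DHODH fell (-0.67). Neither call held without PBS replicate 1, where DHODH was at -0.44 and AIFM2 was the 1 gene called (0.78).

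SLC7A11 and CHAC1 are also targets of ATF4, the factor of the amino acid and stress response. Of 10 genes on that list, 5 rose and 1 fell (60.0% called), with SESN2 and CHAC1 the largest rises and SLC7A5 the fall (-0.83 ± 0.15). ASNS, DDIT3 and PHGDH rose by 0.72, 0.90 and 0.67. SLC7A11, at -0.08, was not among the genes called. Without PBS replicate 1 the list held 6 higher and 0 lower, SLC7A5 being at -0.55 and no longer called. Without PBS replicate 1 or P-DXd-titled replicate 2 the number of genes called in each list stayed within 1.5 times of that above, apart from the regulators, NADPH supply, ferroptosis defence (1 higher, 0 lower) and HBB, all without PBS replicate 1. A count within that range can hold other genes, as among the peroxidases.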

How the data were processed

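RNA-Seq counts of 9 PC3 xenograft libraries were used, 3 per group by title. Per the labels, Cutadapt, STAR and featureCounts were used by the authors to trim, align and count reads, and the deposited files give raw counts per gene, for protein-coding genes with 5 or more counts in several libraries. Neither removal of mouse reads nor strand use is given in the sources used here. The labels name GRCh38, but of 15685 identifiers matched in GENCODE v44 only 44 had the same coordinates, so coordinates of members are those of the tables.

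Counts were fitted with edgeR 4.0.16 (R 4.3.3; TMM, filterByExpr, quasi-likelihood F test, Benjamini-Hochberg adjustment over all genes tested), in place of the DESeq2 of the study with its call rule kept. Pairwise comparisons used 6 libraries, both conjugates against PBS all 9. Levels are CPM on TMM-scaled totals. Ratios of counts (0.5 added) were tested by exact two-sided permutation over 84 divisions, adjusted over 5. The method was tested on simulated data. Replicates differed by more than sampling noise (chi-square per gene 17.1 to 386.6).

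Members and lists were chosen with earlier results of these data known. Named were all members, the 2 called genes with the largest absolute change in each list (the most abundant where fewer were called) and the 3 genes most like NQO1, HMOX1 and SLC7A11, and further listed genes were named after their values were seen. Some listed genes are counted in their list but not reported here by name. Alternatives were DESeq2 1.42.0, RLE or no size factors, other filters, no fold minimum, glmTreat, 1 fit of 9 libraries, a block on a digit of the animal code whose meaning is not given, a pseudocount of 5, and leaving out each library. List counts without PBS replicate 1 or P-DXd-titled replicate 2 were chosen after seeing the data.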

Additional observations from a re-analysis of the deposited data

Results flagged for a closer look

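In the 6 treated libraries, the lowest value stood far from the others for 2 of the 9 members. For NQO1 it was P-DXd-titled replicate 2, at 35.5 CPM against 39.3 to 41.3 CPM in the others, a gap of 0.654 of the whole range, past Dixon's 95% critical value. For SRXN1 it was T-DXd-titled replicate 2, at 19.4 CPM against 22.0 to 22.9 CPM, a gap of 0.748. About 1 in 20 groups passes it by chance. P-DXd-titled replicate 2 is also the library with the high muscle signal, whose part in its NQO1 level was not tested.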

How the results depend on the processing

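Among the 9 members, HMOX1 was the one called against PBS in each comparison under DESeq2, other size factors, other filters and the code digit block. Without the fold minimum 5, 5 and 6 members passed (P-DXd-titled, T-DXd-titled, both), and with glmTreat 0 did, while all genes called fell to 1130, 1696 and 2536 with glmTreat and were 8398 for both conjugates without the minimum. Leaving out a library gave 1857 to 3936 genes and 0 to 1 members (P-DXd-titled), 2820 to 4641 genes (T-DXd-titled), and 0 to 8 genes between titled groups, where DESeq2 called 24, glmTreat 1 and the fit of 9 libraries 0. Over the same omissions the ratio differences ran from 0.20 to 0.42 (GCLM to GCLC), -0.11 to 0.17 (NFE2L2 to KEAP1) and -0.61 to -0.44 (SLC7A11 to SLC3A2), and the first and last no longer passed the adjusted threshold in 6 of the 9 omissions each, with fewer divisions possible. Members near 0 changed sign. SLC7A11 ran from -0.039 to 0.26 (P-DXd-titled) and -0.18 to 0.13 (both), and SRXN1 from -0.015 to 0.081, -0.091 to 0.029 and -0.049 to 0.046, and was 0.011 without a filter and 0.00096 with the code digit block. No paired analysis was possible because the titles give animal codes whose digits the labels do not explain, and the code digit block changed no member's call. Every member had at least 763 counts in each library.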
